A study of Oryza sativa Japonica Group with 30 samples.

Results

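A set of 37 genes, of 55490 features in the expression table, was transcribed in leaves of the SNAC1-overexpressing rice line and was at or near 0 in leaves of its parent variety. The genes were chosen by 2 limits on the deposited values. Each had an FPKM (fragments per kilobase of exon model, set relative to all mapped reads) below 0.5 in every one of the 6 wild-type libraries, and a mean FPKM of at least 1 in the SNAC1 line both under normal conditions and under drought. Of the 37, 31 are annotated MSU 7.0 loci, whose identifiers give the chromosome, and 6 are newly assembled genes without a position, listed as Oryza_sativa_newGene with a number and written newGene here. Because the contrast between the genotypes chose the genes, its values and calls for them are given as a description and are no test.

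SNAC1 belongs to the NAC family, a large group of transcription factors found in plants, which act in development, senescence and stress. Many NAC genes of rice are induced by water deficit and by abscisic acid (ABA), the hormone that closes stomata and switches on protective genes in drying leaves. Constitutive overexpression of such a factor is a common way to look for genes that depend on it.

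The RNA-Seq samples were leaves of seedlings at the 4-leaf stage from 2 genotypes. ZH11 (Zhonghua 11, ZH11-WT in the labels) is the untransformed variety, and the SNAC1-OE plants carry the full coding sequence of SNAC1 behind a maize ubiquitin promoter in the ZH11 background. The libraries of SNAC1-OE are SNAC1-N under normal watering and SNAC1-D after 10 to 15 days without water, and those of ZH11 are ZH11-N and ZH11-D. Each of these 4 groups had 3 libraries. The transgenic plants shared pots with ZH11, 10 plants of each, and the libraries all came from line OE-19, so that the effect of SNAC1 and any other difference between this line and ZH11 cannot be told apart.

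The summed FPKM of a library was 728628 to 952207, and fragment counts were not given, so that the depth and the counting error of low values are unknown. SNAC1 (LOC_Os03g60080, chromosome 3) had an FPKM of 764, 995 and 781 in SNAC1-N, 667, 981 and 747 in SNAC1-D, 329, 530 and 430 in ZH11-D and 27.2, 44.8 and 39.7 in ZH11-N. The SNAC1-OE libraries were thus above those of ZH11 in both watering conditions, and SNAC1 itself was no member because ZH11 transcribed it. The 5 leaf markers, genes of the small subunit of Rubisco and of light-harvesting proteins, lay between 158 and 22580 FPKM in all 12 libraries. The root gene RCc3 did not exceed 0.536 and the meristem gene OSH1 was listed at 0 in every library, while Lsi1, a silicon transporter best known from roots, was at 8.36 to 16.4 and the glutelin gene at 1.02 to 2.07. The ubiquitin gene (135 to 228) and actin 1 (49.9 to 235) were above 0 in every library.

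The 37 genes together reached a summed FPKM of 2.06, 2.44 and 2.69 in ZH11-N and of 2.16, 2.82 and 2.56 in ZH11-D. The same sum came to 215, 208 and 235 in SNAC1-N and to 261, 244 and 291 in SNAC1-D. The sum in ZH11 is bounded by the limit of the rule, and within that limit the libraries of ZH11-N and ZH11-D overlapped, while those of SNAC1-D all lay above those of SNAC1-N. As a share of the summed FPKM of all features in each library, SNAC1-N and SNAC1-D overlapped. The members made up 0.0295%, 0.0223% and 0.0269% in SNAC1-N and 0.0339%, 0.0292% and 0.0361% in SNAC1-D. The genes with the highest levels weigh most in the sum over the 37 genes, among them LOC_Os06g21369 (mean 18.9 in SNAC1-N and 52.9 in SNAC1-D) and LOC_Os03g43100 (18.1 and 34.6). The median over the 37 genes was 2.69, 3.28 and 3.15 in SNAC1-N and 3.40, 3.02 and 3.81 in SNAC1-D, which overlapped. In bulk leaf RNA, fewer cells that express a gene and less RNA per cell cannot be told apart.

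In ZH11 the members ranged from 0 to values close to the limit. For 7 of them every ZH11 library was listed at 0, namely LOC_Os07g26100, LOC_Os07g39450, LOC_Os01g35149, LOC_Os04g01580, LOC_Os04g32610, newGene_583 and newGene_1621. Counting values below 0.001 as 0, another 22 were at 0 in 1 to 5 of the ZH11 libraries, and 8 were above that value in all 6. Relative to the mean over the 6 SNAC1-OE libraries, the mean of the ZH11 libraries had a median of 0.588% over the 37 genes and was under 1% for 22 of them. It was above 5% for 9 genes, most of them at low levels, and highest for LOC_Os12g34390 (13.1%), where ZH11 ranged from 0.142 to 0.275 and SNAC1-OE from 1.39 to 1.83. In 34 of the 37 the lowest SNAC1-OE library was above the highest ZH11 library, and this follows in large part from the rule. The same share over all features is not given here, so that the 34 is no result about the members.

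**Figure D1:**
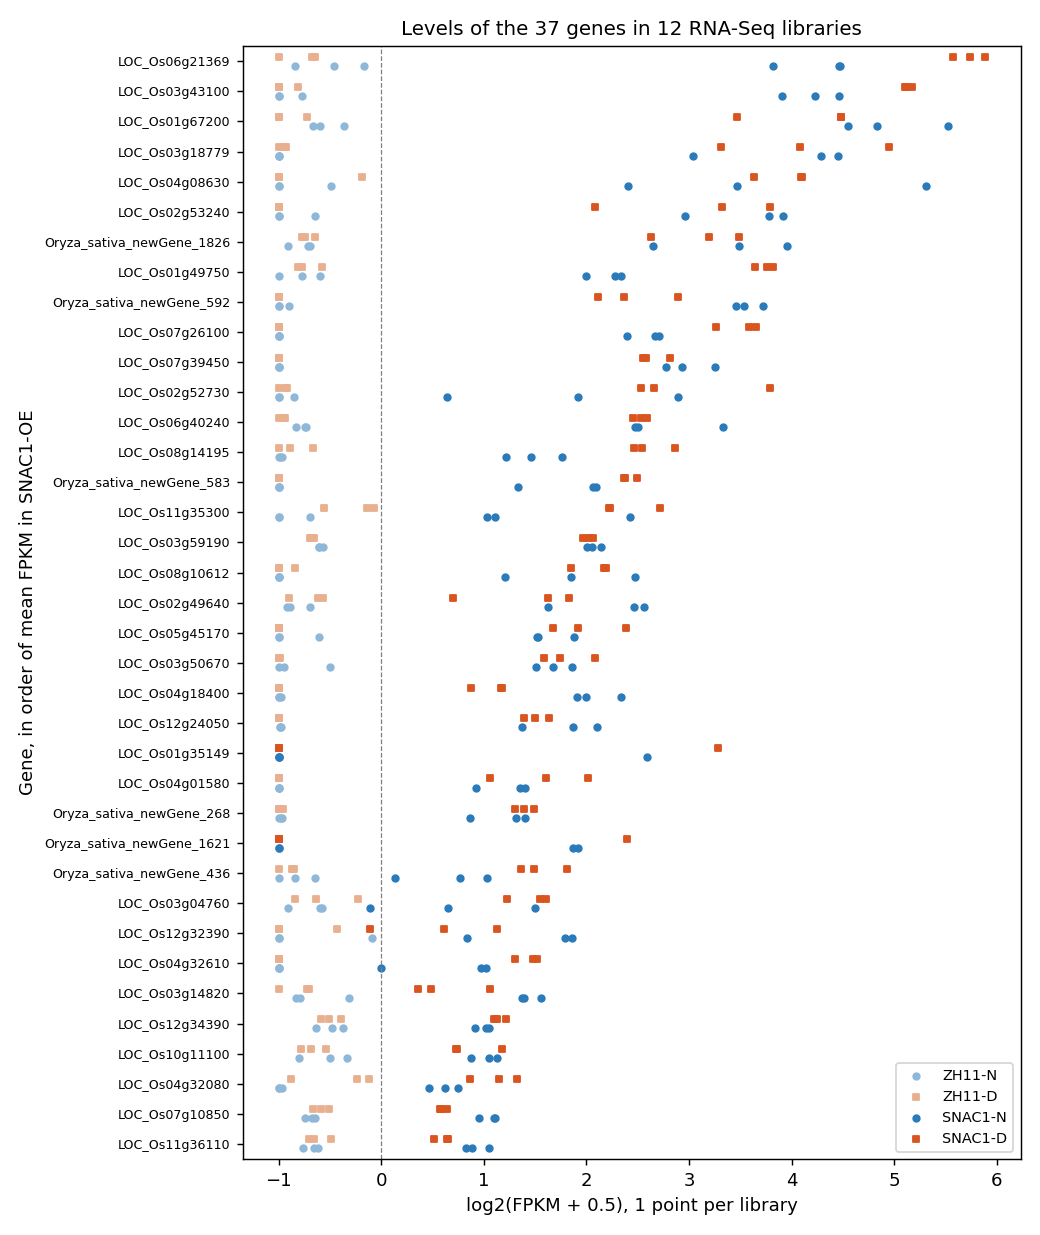
Each of the 37 genes is a row, ordered by its mean FPKM in SNAC1-OE, and each point is 1 of the 12 libraries on a scale of log2(FPKM + 0.5), where -1 stands for an FPKM of 0 and the dashed line for 0.5. Points of ZH11 lie left of the line by the rule, and the points of SNAC1-OE reach from 0 in 2 genes to an FPKM of 58.7 in LOC_Os06g21369.

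The limits of the rule cut through a continuous range of values. The members closest to the ZH11 limit were LOC_Os11g35300, LOC_Os12g32390 and LOC_Os04g32080, with a highest ZH11 library of 0.452, 0.442 and 0.423. Just outside it lay LOC_Os06g13460 (0.512), LOC_Os01g18490 (0.601) and LOC_Os03g61500 (0.622). LOC_Os01g18490 missed the rule by a single library, since its other ZH11 values were 0 to 0.0190 and its SNAC1-OE values 2.88 to 7.08. At the other limit, LOC_Os07g10850, LOC_Os11g36110 and LOC_Os04g32080 had a lower SNAC1-OE group mean of 1.02, 1.02 and 1.03. LOC_Os06g09980 (0.974), LOC_Os04g52790 (0.973) and LOC_Os05g13560 (0.933) fell short of it, and LOC_Os04g52790 was at 0 in all 6 ZH11 libraries.

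The reverse pattern was rare. With the genotypes exchanged, the same limits selected 4 genes in place of 37. LOC_Os03g20740 had an FPKM of 2.39, 1.12 and 1.68 in ZH11-N and 3.82, 3.69 and 4.90 in ZH11-D, against at most 0.499 in SNAC1-OE, and LOC_Os06g26270 had 2.10, 1.97 and 1.24 in ZH11-N and 2.72, 2.64 and 3.31 in ZH11-D, against at most 0.487. The other 2 had values in replicate 1 alone: LOC_Os01g43880 was at 10.6 in ZH11-N replicate 1 and 4.15 in ZH11-D replicate 1, LOC_Os05g35080 was at 10.5 and 6.24 in the same libraries, and both were listed at 0 in all others. The numbers of members and mirrored genes were 30 and 2 with a limit of 0.3 for the silent genotype, 52 and 7 with a limit of 1, 27 and 2 when every library of the expressing genotype had to reach 1, and 22 and 1 with group means of at least 2.

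**Figure D2:**
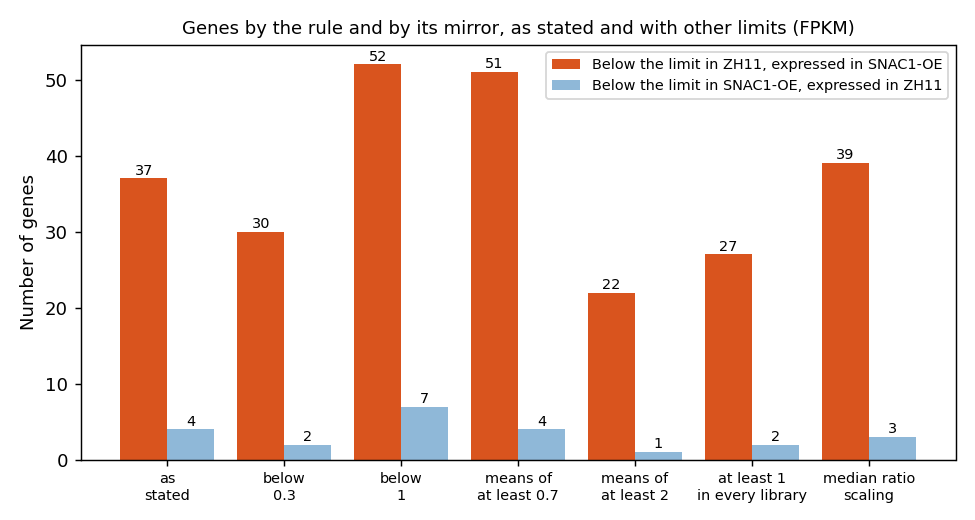
Bars give the number of genes that were below the limit in ZH11 and expressed in SNAC1-OE, beside the number with the genotypes exchanged, for the rule as stated and for 6 other settings. The first number was 22 to 52 and the second 1 to 7.

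In the fit across all features, 32 of the 37 members were among the 71 features called different between SNAC1-N and ZH11-N, and 34 were among the 86 called between SNAC1-D and ZH11-D. The background of calls was 0.324% of the 21886 features tested under normal conditions and 0.393% under drought. These counts use the contrast that chose the members, so that the rule made a call likely and the counts are no test. They are a description of how many of the few genotype differences in this fit the members make up. This fit had no block for the shared pots, and the number of genotype calls with such a block is not given here. Features called in both conditions in the same direction numbered 59 (0.27%), and 32 of them were members.

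The 37 genes covered a range of levels in SNAC1-OE. The mean over the 6 libraries was 1.21 to 35.9 FPKM with a median of 3.30, against a median of 11.5 for the 17952 features with a mean of at least 1 in both SNAC1-OE groups. It was 10 or more for 6 genes, 5 to 10 for 7, 2 to 5 for 12 and below 2 for 12. Neither the deposited tables nor the gene lists of the study pair these identifiers with a gene name, and their roles are therefore not given here.

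The highest level was that of LOC_Os06g21369 (chromosome 6), with an FPKM of 13.6, 21.7 and 21.5 in SNAC1-N and 47.3, 52.7 and 58.7 in SNAC1-D, against 0 to 0.392 in ZH11. LOC_Os03g43100 (chromosome 3) followed with 14.5, 18.2 and 21.5 in SNAC1-N and 34.1, 34.0 and 35.7 in SNAC1-D. Its ZH11 libraries were listed at 0 in 4 cases and did not exceed 0.0874. In both genes all drought libraries lay above all libraries from normal conditions. LOC_Os01g67200 (chromosome 1) had the opposite order, with 28.0, 22.9 and 45.4 in SNAC1-N and 21.8, 10.6 and 21.8 in SNAC1-D.

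The next 3 genes varied widely between libraries of the same group. LOC_Os03g18779 (chromosome 3) was at 7.71, 21.4 and 19.1 in SNAC1-N and 16.5, 9.40 and 30.5 in SNAC1-D. LOC_Os04g08630 (chromosome 4) had 39.3 in SNAC1-N replicate 1 but 10.6 and 4.80 in the other two, and 16.7, 16.6 and 11.9 in SNAC1-D. LOC_Os02g53240 (chromosome 2) was at 14.6, 7.28 and 13.2 in SNAC1-N and 3.74, 9.47 and 13.3 in SNAC1-D. For these 3 genes the drought and normal libraries overlapped.

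Among the 7 genes with means of 5 to 10, LOC_Os01g49750 (chromosome 1) separated the watering conditions most clearly, with 3.48, 4.57 and 4.34 in SNAC1-N and 11.97, 13.63 and 13.03 in SNAC1-D. LOC_Os07g26100 (chromosome 7) was at 6.05, 5.87 and 4.77 in SNAC1-N and 11.5, 12.1 and 9.10 in SNAC1-D, and was listed at 0 in every ZH11 library. LOC_Os07g39450 on the same chromosome was also listed at 0 throughout ZH11 and had 7.11, 6.34 and 9.04 in SNAC1-N and 5.38, 5.49 and 6.52 in SNAC1-D. The first pair of genes was higher under drought without overlap, and the third was not separated. LOC_Os06g40240 (chromosome 6) stayed between 4.97 and 5.53 in 5 of its 6 libraries and reached 9.56 in SNAC1-N replicate 1. LOC_Os02g52730 (chromosome 2) had the widest range of this group, 1.06 to 13.3.

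The 6 newly assembled members were 16.2% of the 37, while newly assembled genes were 1.91% of all features with a mean of at least 1 in both SNAC1-OE groups. How the assembly was made is not given in the sources used here, and a gene assembled from these libraries is not independent of them. newGene_592 was at 12.7, 11.1 and 10.5 in SNAC1-N and 6.94, 4.66 and 3.81 in SNAC1-D, with a single ZH11 library above 0 (0.0374). newGene_1826 was at 5.79, 10.7 and 15.0 in SNAC1-N and 8.66, 10.7 and 5.68 in SNAC1-D, and was above 0 in every ZH11 library (0.0318 to 0.140). These 2 were the strongest of the 6. newGene_583 was at 2.03, 3.68 and 3.77 in SNAC1-N and 4.65, 4.70 and 5.15 in SNAC1-D, newGene_268 ranged from 1.32 to 2.30 over the 6 libraries, and newGene_436 was at 1.55, 0.598 and 1.21 in SNAC1-N and 2.31, 3.02 and 2.07 in SNAC1-D.

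The level of 2 members came from some of the SNAC1-OE libraries only. LOC_Os01g35149 (chromosome 1) was at 5.52 in SNAC1-N replicate 3 and 9.25 in SNAC1-D replicate 3 and was listed at 0 in the other 10 libraries. newGene_1621 was at 3.14 and 3.28 in SNAC1-N replicates 1 and 2 and 4.75 in SNAC1-D replicate 3, and was listed at 0 elsewhere. Of the 17952 features with means of at least 1 in both SNAC1-OE groups, 51 (0.284%) had such a value of 0 in any SNAC1-OE library. These 2 members therefore did not separate the genotypes in every library, and the same held for LOC_Os12g32390, whose lowest SNAC1-OE library (0.424) was below its highest ZH11 library (0.442).

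Other members were nearly constant in the SNAC1 line. LOC_Os03g59190 (chromosome 3) was at 3.52, 3.91 and 3.65 in SNAC1-N and 3.40, 3.56 and 3.67 in SNAC1-D, with 0.118 to 0.173 in ZH11. LOC_Os12g34390 (chromosome 12) was at 1.57, 1.53 and 1.39 in SNAC1-N and 1.64, 1.83 and 1.68 in SNAC1-D. On the scale of log2(FPKM + 0.5), the SD within SNAC1-OE groups was 0.0587 for the steadiest member and 2.28 for the most variable, with a median of 0.299, and for the 14444 features in the same range of means that median was 0.229.

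The response of the members to drought within SNAC1-OE was tested, since the rule did not use the difference between SNAC1-D and SNAC1-N, although it required a mean of at least 1 in both. limma's moderated test on log2(FPKM + 0.5) was adjusted by the Benjamini-Hochberg method over the 21886 features whose FPKM averaged 0.5 or more, a filter that all 37 members passed by the rule. A gene was called when its log2FC was 1 or more in either direction with an adjusted p-value below 0.05. By this rule 5 of the 37 (13.5%) changed, 3 higher and 2 lower under drought, against 30.5% of all features tested. The background was 12.8% higher and 17.7% lower, and 29.2% in either direction for features with a mean in SNAC1-OE within the range of the members. Each of these backgrounds includes features with a mean below 1 in SNAC1-N or SNAC1-D, which the rule bars from the members. The shares are therefore not like for like, and a weaker response of the members cannot be read from them.

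LOC_Os01g49750 had the largest change among the members and rose by 1.54 on the log2 scale, with a standard error of 0.151 and a limma adjusted p of 2.90e-05. Its drought mean was 12.9 ± 0.839 against 4.13 ± 0.573 FPKM (SD, n = 3 each). LOC_Os06g21369 rose by 1.48 (standard error 0.221, limma adjusted p = 0.000352), from 18.9 ± 4.62 to 52.9 ± 5.70 FPKM. LOC_Os08g14195 (chromosome 8) rose by 1.15 (standard error 0.176, limma adjusted p = 0.000418), with 1.82, 2.90 and 2.24 in SNAC1-N and 5.33, 6.76 and 5.03 in SNAC1-D. These 3 were the members called higher. The 2 called lower were newGene_592, which fell by 1.12 (standard error 0.184, limma adjusted p = 0.000640), and LOC_Os04g18400 (chromosome 4), which fell by 1.01 (standard error 0.153, limma adjusted p = 0.000390) from 3.25, 4.56 and 3.49 in SNAC1-N to 1.76, 1.33 and 1.75 in SNAC1-D. LOC_Os04g18400 was close to the threshold on the log2FC, which was -0.86 with a pseudocount of 1 or after quantile normalization and -0.91 and -0.88 without SNAC1-D replicate 2 or SNAC1-N replicate 2. newGene_592 was at -0.94 without SNAC1-D replicate 3. The count of 5 became 10 without SNAC1-N replicate 1, where LOC_Os02g49640, LOC_Os04g08630, LOC_Os11g35300, LOC_Os12g32390 and newGene_436 were called in addition. It became 8 without SNAC1-D replicate 3, where LOC_Os02g49640, LOC_Os07g26100, LOC_Os12g32390 and newGene_436 were called and newGene_592 was not, and with quantile normalization it was 5 with 4 higher and 1 lower. The share of all features called in these other fits is not given here. Whether these shifts are particular to the members can therefore not be read from the counts.

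**Figure D3:**
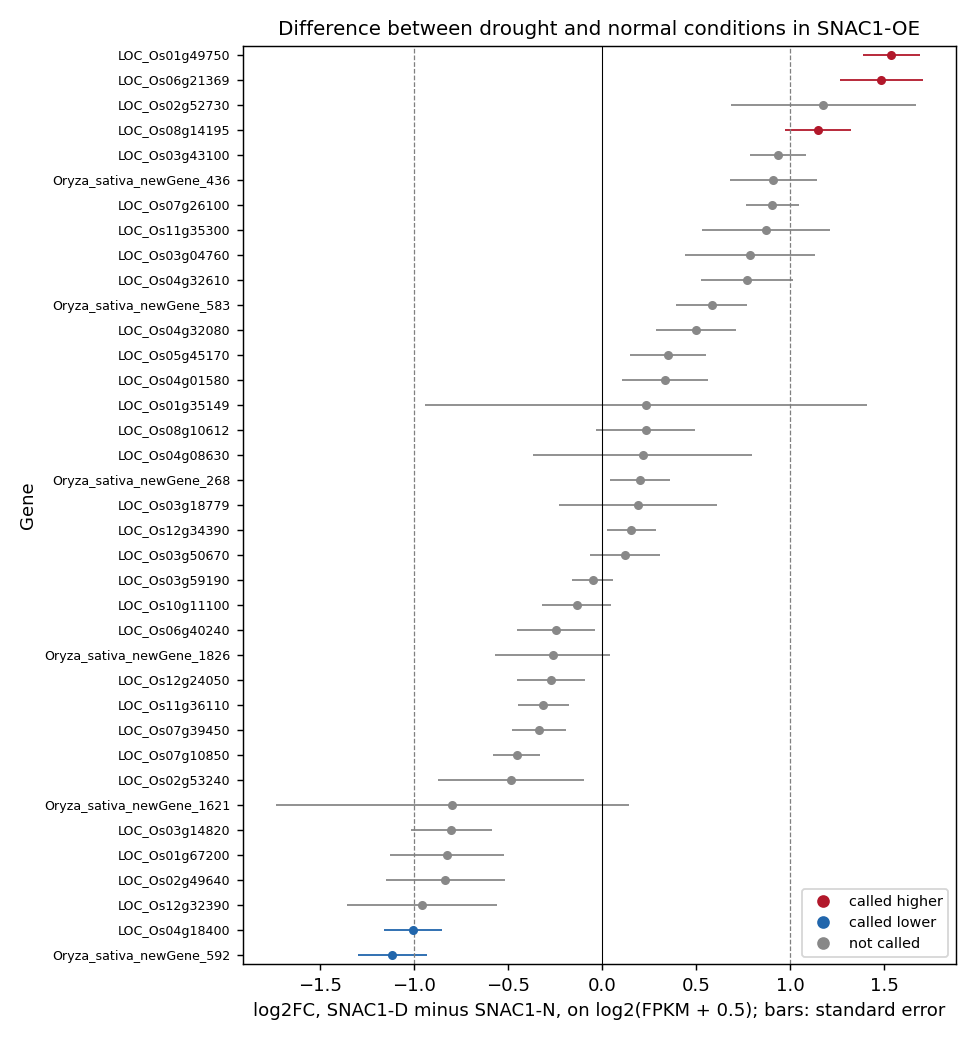
Points give the log2FC of each of the 37 genes between SNAC1-D and SNAC1-N on the scale of log2(FPKM + 0.5), with its standard error from the limma fit as a bar and dashed lines at a log2FC of -1 and 1. The 3 genes called higher lie at 1.15 to 1.54 and the 2 called lower at -1.01 and -1.12.

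Most members changed less than the threshold. An adjusted p-value under 0.05 at any size of log2FC was reached by 14 of the 37, against 52.1% of all features tested. With libraries of the same number and watering condition as a block, taken as a shared pot, 10 of the 37 reached it. LOC_Os01g67200 (0.0651), LOC_Os02g49640 (0.120), LOC_Os04g32610 (0.0616) and newGene_583 (0.0666) then had an adjusted p-value above 0.05 in limma. The share of all features with this block is not given here. In 16 members (43.2%) the libraries of SNAC1-D and SNAC1-N did not overlap, against 63.2% of all features. The log2FC of the members ranged from -1.12 to 1.54, with a median size of 0.50 against 0.64 for all features, and was above 0 in 21 of them (56.8%, against 52.7%). All features compared here were not held to the rule's mean of at least 1 in both SNAC1-OE groups, so that these values are not like for like either.

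Just below the threshold, LOC_Os03g43100 had a log2FC of 0.94 (limma adjusted p = 0.000510) and LOC_Os07g26100 of 0.90 (limma adjusted p = 0.000416). newGene_436 was at 0.91 (limma adjusted p = 0.00783) and LOC_Os04g32610 (chromosome 4) at 0.77 (limma adjusted p = 0.0225), with 1.47, 0.497 and 1.53 in SNAC1-N and 2.36, 1.97 and 2.30 in SNAC1-D. These genes had a small adjusted p-value and a difference of less than 1 on the log2 scale. LOC_Os03g43100 passed the threshold without SNAC1-N replicate 3 (log2FC 1.07), and newGene_436 passed it with a pseudocount of 0.1 (1.15) or quantile normalization (1.08). In the other direction lay LOC_Os01g67200 with -0.82 (limma adjusted p = 0.0420), LOC_Os02g49640 (chromosome 2) with -0.83 (limma adjusted p = 0.0480) and LOC_Os03g14820 (chromosome 3) with -0.80 (limma adjusted p = 0.0108). LOC_Os02g49640 was at 2.58, 5.40 and 5.04 in SNAC1-N and 1.12, 2.59 and 3.06 in SNAC1-D, which overlapped, while LOC_Os03g14820 was at 2.44, 2.08 and 2.12 and at 1.58, 0.904 and 0.785, which did not. Without SNAC1-D replicate 1 the log2FC of LOC_Os03g14820 was -1.01, past the threshold. LOC_Os02g52730 had a larger estimate, 1.18, with a standard error of 0.493 and a limma adjusted p of 0.0681, and its log2FC was 1.71 without SNAC1-N replicate 2 (limma adjusted p = 0.00954), 0.59 without SNAC1-N replicate 1 (limma adjusted p = 0.218) and 0.78 without SNAC1-D replicate 1 (limma adjusted p = 0.230). LOC_Os04g08630 had a log2FC of 0.21 (limma adjusted p = 0.778), which was 1.01 without SNAC1-N replicate 1 (limma adjusted p = 0.0393) and -0.45 without SNAC1-N replicate 3 (limma adjusted p = 0.480), so that single libraries set its direction. Leaving out single libraries moved the log2FC of LOC_Os02g49640 from -1.13 to -0.49 (limma adjusted p = 0.0111 to 0.170) and that of LOC_Os01g67200 from -1.03 to -0.49 (limma adjusted p = 0.0273 to 0.160), and their extremes lay without SNAC1-N replicate 1 and SNAC1-D replicate 1 for the first gene and without SNAC1-N replicate 2 and SNAC1-D replicate 2 for the other.

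The remaining members were at low levels. LOC_Os11g35300 (chromosome 11) was at 4.87, 1.65 and 1.54 in SNAC1-N and 6.10, 4.14 and 4.18 in SNAC1-D, a log2FC of 0.87 (limma adjusted p = 0.0537) that was 1.32 without SNAC1-N replicate 1 (limma adjusted p = 0.00110) and 0.62 without SNAC1-N replicate 3 (limma adjusted p = 0.187). In ZH11 this gene was at 0.178 to 0.452 under drought and at 0 to 0.120 under normal conditions. LOC_Os03g04760 (chromosome 3) was at 0.424, 1.07 and 2.33 in SNAC1-N and 2.43, 2.54 and 1.85 in SNAC1-D, and LOC_Os12g32390 (chromosome 12) was at 1.29, 2.97 and 3.13 and at 1.02, 0.424 and 1.68. Both overlapped between the watering conditions and were not called (limma adjusted p = 0.0814 and 0.0656), although LOC_Os03g04760 was called without SNAC1-N replicate 3, with a log2FC of 1.19 (limma adjusted p = 0.00732). LOC_Os08g10612, LOC_Os05g45170, LOC_Os03g50670, LOC_Os12g24050 and LOC_Os04g01580 had group means of 1.86 to 3.73 FPKM and adjusted p-values of 0.172 to 0.610 in limma. LOC_Os04g32080, LOC_Os07g10850, LOC_Os10g11100 and LOC_Os11g36110 had group means of 1.02 to 1.68 FPKM and ZH11 values that were 10.1% to 11.5% of those in SNAC1-OE. LOC_Os07g10850 was lower under drought without overlap, with a log2FC of -0.45 (limma adjusted p = 0.0119). The watering conditions also did not overlap in LOC_Os04g32080 (0.50, limma adjusted p = 0.0721) and LOC_Os11g36110 (-0.31, limma adjusted p = 0.0765). They overlapped in LOC_Os10g11100 (-0.14, limma adjusted p = 0.555).

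The 31 annotated members were spread over 11 of the 12 chromosomes. Chromosome 3 held 6, chromosome 4 held 5, chromosomes 1, 2, 7 and 12 held 3 each, chromosomes 6, 8 and 11 held 2 each, and chromosomes 5 and 10 held 1 each. Chromosome 9 held 0 of the 31, with 956 loci at a mean of at least 1 in both SNAC1-OE groups. Chromosome 4 had 16.1% of the members and 8.45% of those loci, chromosome 3 had 19.4% and 13.7%, and chromosome 1 had 9.68% and 14.4%. At 0 to 6 members per chromosome these shares are a description only.

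**Figure D4:**
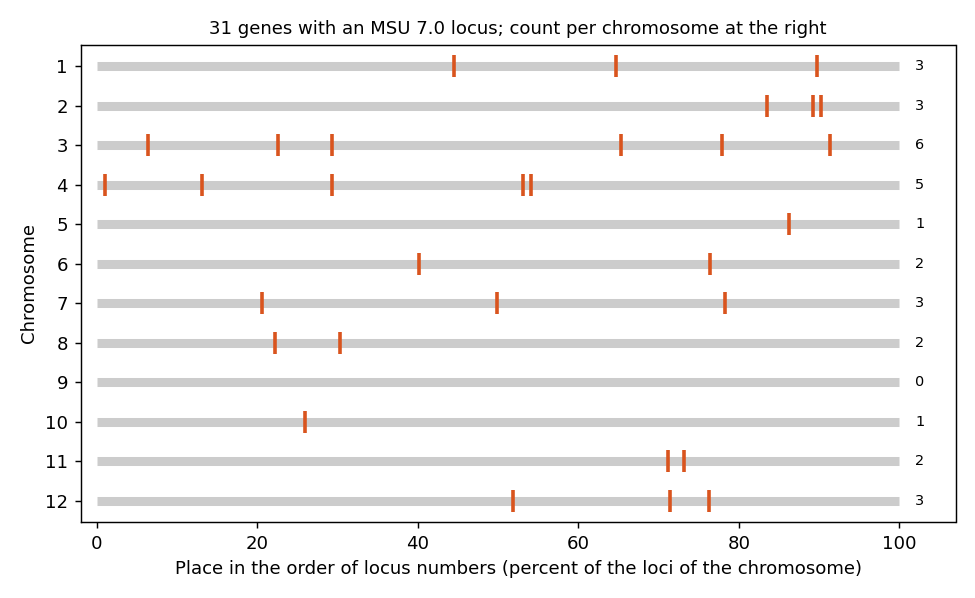
Each mark is 1 of the 31 members with an MSU 7.0 locus, placed by its rank in the order of locus numbers as a percent of the loci of its chromosome, and the number at the right is the count of members. The marks lie on 11 of the 12 chromosomes, and the 2 closest pairs, on chromosomes 2 and 4, have 48 other loci between them.

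Of the 31 members with a locus, no 2 were adjacent. In the order of locus numbers, which follows the chromosome, consecutive members on the same chromosome were separated by 48 to 1946 other loci, with a median of 746.5 over 20 pairs. The closest were LOC_Os02g52730 and LOC_Os02g53240, and LOC_Os04g32080 and LOC_Os04g32610, each with 48 loci between them, followed by LOC_Os11g35300 and LOC_Os11g36110 with 77. LOC_Os04g32080 and LOC_Os04g32610 were both higher in every SNAC1-D library than in any SNAC1-N library, whereas both genes of the chromosome 2 pair overlapped between the watering conditions.

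The loci around the members were then compared between the genotypes, as their values had not been used by the rule. The 5 annotated loci on each side of the 31 members gave 310 neighbours, of which 148 passed the filter and entered the same fit. Under normal conditions 0 of the 148 were called between SNAC1-N and ZH11-N, against 0.324% of all features, and 3 had an unadjusted p-value under 0.05. Their log2FC ranged from -0.60 to 0.97 with a median of -0.01. Under drought 1 of the 148 (0.676%) was called, against 0.393% of all features, and 2 had an unadjusted p-value under 0.05. The log2FC ranged from -0.46 to 1.12 with a median of -0.03. Among annotated loci that are no members, 0.169% were called under normal conditions and 0.216% under drought.

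The neighbour called under drought was LOC_Os12g34400, the locus next to LOC_Os12g34390 on chromosome 12. It was at 3.76, 4.67 and 4.32 FPKM in SNAC1-D and 1.60, 1.53 and 1.95 in ZH11-D, and the log2FC was 1.12 with a standard error of 0.130 and a limma adjusted p of 0.00234. Under normal conditions it was at 1.76, 1.65 and 1.75 in SNAC1-N and 1.18, 1.41 and 1.10 in ZH11-N, a log2FC of 0.36 (limma adjusted p = 1). The difference between the 2 values of log2FC was 0.75 (unadjusted p = 0.00210 in limma, adjusted p = 1), so that the call under drought alone does not show a different effect in the watering conditions. The SNAC1-OE libraries were above those of ZH11 in both conditions. Reads shared by adjacent or overlapping genes cannot be assigned from these values. The call was lost with a pseudocount of 1. Of the 35 immediate neighbours tested, all 35 under normal conditions and 34 under drought differed between the genotypes by less than 1 on the log2 scale.

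The filter left out 162 of the 310 neighbours, of which 104 were listed at 0 in all 12 libraries. In 3 of the 162 (1.85%) the SNAC1-OE libraries lay above those of ZH11 without overlap in both watering conditions, against 0.327% of all 33604 features below the filter. LOC_Os03g43130, 2 loci from LOC_Os03g43100, was at 0.728, 0.597 and 0.645 FPKM in SNAC1-N and 0.928, 0.640 and 0.710 in SNAC1-D, and was listed at 0 in every ZH11 library. It had the members' pattern at a lower level, and without the filter it was called under normal conditions (log2FC 1.21, limma adjusted p = 6.52e-05) and under drought (log2FC 1.33, limma adjusted p = 3.51e-05). The other 2 were LOC_Os08g14190 and LOC_Os08g14200, the loci on either side of LOC_Os08g14195. LOC_Os08g14190 was at 0.800, 0.244 and 0.248 in SNAC1-N and 0.883, 0.618 and 0.705 in SNAC1-D, against 0 to 0.231 in ZH11-N and 0.0679 to 0.259 in ZH11-D. LOC_Os08g14200 did not exceed 0.383 in any library. These 3 loci were singled out after their values were seen, and 2 of them adjoin a member, so that shared reads could not be set apart.

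The study's list of genes regulated by SNAC1 under drought names 0 of the 37 members, and its list of targets, a subset of the first, therefore names 0 as well. The study drew the first list from genes called under drought in both OE-19 and ZH11. Members lay below 0.5 FPKM in every ZH11 library, so that the rule left them little room to enter it. The 0 is therefore no result about their regulation by SNAC1. A further list holds only those SNAC1-bound genes that had been described before, and it also names 0 members. These lists do not cover all bound genes, and binding of SNAC1 at the members was not analysed here. Of the 310 neighbours, 6 (1.94%) are in the list of regulated genes, which holds 1.80% of all annotated loci, 7 (2.26%) in the list of described bound genes, which holds 0.914%, and 3 (0.968%) in the list of targets, which holds 0.171%. The neighbours described next were picked out after their values were seen.

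OsRap2.6 (LOC_Os04g32620), an ethylene-responsive transcription factor in all 3 lists, is the locus next to LOC_Os04g32610. Its FPKM was 3.62 ± 0.873 in SNAC1-N and 2.88 ± 0.562 in ZH11-N, and 30.8 ± 10.4 in SNAC1-D and 36.4 ± 12.5 in ZH11-D (SD, n = 3 each). OsbZIP23 (LOC_Os02g52780), a bZIP factor of ABA signalling, lies 4 loci from LOC_Os02g52730 and was at 15.5 ± 4.61 in SNAC1-N, 14.8 ± 3.13 in ZH11-N, 101 ± 6.88 in SNAC1-D and 115 ± 12.5 in ZH11-D (SD, n = 3 each). Under drought OsRap2.6 rose in SNAC1-OE with a log2FC of 2.90 (limma adjusted p = 3.16e-05), and OsbZIP23 rose with one of 2.70 (limma adjusted p = 1.21e-05). The glutathione S-transferase gene LOC_Os01g49710, 4 loci from LOC_Os01g49750, rose from 1.94 ± 0.611 in SNAC1-N to 46.5 ± 12.8 in SNAC1-D and was at 0.998 ± 0.765 and 50.4 ± 15.6 in ZH11 (SD, n = 3 each). The 7 neighbours in the list of described bound genes had log2FC values between the genotypes of -0.60 to 0.28 under normal conditions and -0.28 to 0.41 under drought, each with a limma adjusted p of 1.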

How the data were processed

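RNA-Seq libraries of leaves were made by the authors, who mapped the reads to rice MSU 7.0 and deposited 1 FPKM value per feature and library. HISAT2 and StringTie are among the tools in the submitters' processing notes, and versions are not given in the sources used here. How reads shared between genes were treated is not given there, and values near 0 and exact zeros may depend on it. Fragment counts and depth are unknown. Each library's group was taken from its title. Columns with values of single samples that went unused numbered 0.

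The test was limma (version 3.58.1, under R 4.3.3), applied to log2(FPKM + 0.5) of each feature whose FPKM averaged 0.5 or more across the 12 libraries. This minimum keeps every member, since the rule gives each a mean of at least 0.5. A fold change on this scale understates the change of low genes. One fit held the 4 groups, with limma's trend option, two-sided tests and Benjamini-Hochberg adjustment over 21886 features. The thresholds were those of the study's methods. The difference between the genotype effects in the 2 watering conditions was a contrast of the same fit, added after the data were seen. The fit was tested on simulated data with independent libraries, where changes were planted only in features of higher level. That check does not cover libraries that deviate together or changes at the low levels of most members.

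The members and lists were chosen with earlier results of these data known. Named genes are the 25 members with the highest mean in SNAC1-OE, members called under drought, the 3 genes on each side of each limit of the rule, mirrored genes, called neighbours and SNAC1. Members outside this rule are given for completeness and were named after their values were seen.

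Libraries of the same number and watering condition deviated together (correlation of the deviations from the group means 0.869, 0.473 and 0.485 under normal conditions, 0.565, 0.546 and 0.203 under drought). The labels state that both genotypes shared pots, and that the same number stands for the same pot was assumed. Between watering conditions the correlation was -0.125 to -0.0359. p-values measure the spread between these libraries. The ChIP-Seq tables were not used here, because their intervals carry no gene names and no MSU 7.0 gene coordinates were used. They also hold the authors' folds and p-values, which were not used.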

Additional observations from a re-analysis of the deposited data

How the results depend on the processing

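The number of members was 34 to 41 on omission of any single library and stayed within 1.5 times 37 except with group means of at least 2, which gave 22. The count of members changed by drought was 4 to 10 without single libraries and 1 with a log2FC of at least 1.5. The count of called neighbours was 0 in each omission under normal conditions and 1 in each under drought. Without a filter on low values it was 1 under normal conditions (LOC_Os03g43130) and 2 under drought (the same locus and LOC_Os12g34400), and with a pseudocount of 1 or a log2FC of at least 1.5 it was 0 under drought. Blocking on the replicate number gave 5 members changed by drought and 0 and 1 called neighbours. A block of replicate number and watering condition, taken as the pot (estimated correlation 0.654), also gave 5, 0 and 1, so that the block moved none of these counts. The number of members with an adjusted p-value under 0.05 at any log2FC was 14, and 16 and 10 with these blocks. The shares of all features in these alternatives are not given here. Under these alternatives no called member changed direction, while the log2FC of 10 members that were not called changed sign in at least 1 of them. Scaling moved the median log2FC of all features under drought in SNAC1-OE by -0.06 or 0.06. The unknown depth limits every value near 0.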
